A study of Homo sapiens with 2 samples.

Results

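The genes described are 6 regulators of myeloid development and leukaemia, CEBPA, CEBPB, CBFB, GATA2, FLT3 and CD33, out of 5851 gene symbols named in 3 tables from an RNA immunoprecipitation of ALKBH5. They were picked by name, with their presence in the tables already known, so that presence is a description and is not tested. The cells were HL60 cells, an established human promyelocytic leukaemia line whose cells stopped early on the path to neutrophils. ALKBH5 is a demethylase that erases N6-methyladenosine, a methyl mark on messenger RNA. Per the labels, the immunoprecipitate came from 80% of the lysate and the input from 10%, with 1 library of each, and a further 10% went to rabbit IgG, which was not analysed here. Both libraries carry the genotype label ALKBH5 and a library name that begins with Ctrl, with no treatment, time point or knockdown named. The title of each library gives the opposite fraction from its library name. The libraries were told apart by library name, although no value below belongs to a single library.

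The tables hold no level per gene. A gene is called listed when any table names it, and a GO (Gene Ontology) or KEGG (pathway database) term is called listed when it stands in the deposited tables, where the largest p-value was 0.0497. The gene lists behind a term are overlaps of names, so depth per gene is unknown and an unlisted gene may still have been bound. Fewer or more bound transcripts, and a difference between immunoprecipitate and input, cannot be read from these tables. With 1 library per fraction there is no replicate check.

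Granulocytes and monocytes arise from a common progenitor under the control of a few transcription factors. CEBPA, a basic leucine zipper factor, is needed for the step into granulocytes, and its relative CEBPB takes over when granulocyte output must rise in an emergency. CBFB is the partner subunit that does not bind DNA itself and stabilises RUNX proteins on it, and GATA2 is a zinc finger factor of stem cells, early progenitors and mast cells. FLT3 is the receptor tyrosine kinase through which FLT3 ligand drives progenitor growth, and it is often activated by mutation in acute myeloid leukaemia. CD33 is a sialic acid-binding receptor (a Siglec) of myeloid cells with inhibitory motifs in its tail, and a target of antibody drugs.

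All 6 genes were listed, against 26.9% of 20056 protein-coding genes. Nothing is read from that count, or from the counts of the 6 that follow, because being listed is how the genes came to be chosen. Every one of them was named in the GO table, where 25.7% of protein-coding genes stood (25.9% in the GO and KEGG tables together). All 6 had a term with a corrected p under 0.05, as had 22.9% of protein-coding genes (4584 of the 5388 listed in any table). Without the terms that hold the identifier of AMBRA1 described below all 6 were listed, as were 25.6%. CEBPA and FLT3 were also in the KEGG table, which held 5.69%. CBFB alone was in the table that pairs genes with families of RNA-binding proteins, which held 6.14%. Each gene stood on a gene identifier that no other symbol carried and that matched its RefSeq identifier. More than 1 symbol was carried by 5.56% of the 5237 identifiers of the GO and KEGG tables.

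The genes lie on 5 chromosomes and span very different lengths in the GRCh38.p14 RefSeq annotation. CEBPA (identifier 1050) occupies 2.6 kb at chromosome 19 from 33299934 to 33302534, and CEBPB (1051) 2.11 kb at chromosome 20 from 50190583 to 50192690. CBFB (865) spans 71.9 kb at chromosome 16 from 67029149 to 67101058. GATA2 (2624) spans 13.8 kb at chromosome 3 from 128479422 to 128493201. FLT3 (2322) spans 97.3 kb at chromosome 13 from 28003274 to 28100576, and CD33 (945) 28.9 kb at chromosome 19 from 51211076 to 51240016. The C/EBP genes are thus the shortest of the set and FLT3 the longest. Positions of single peaks within these genes were not analysed here.

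The number of listed terms that named a gene ran from 3 to 12. CEBPA had 12, CEBPB 10, GATA2 9, CBFB and FLT3 8 each, and CD33 3. The median over all 5614 symbols of the GO and KEGG tables was 4 terms, with quartiles of 2 and 8 and a maximum of 40. CEBPA had more terms than 88% of those symbols and CD33 more than 28.7%. The count follows how thoroughly a gene is annotated as well as which terms passed the authors' limit, and these parts cannot be told apart.

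**Figure D1:**
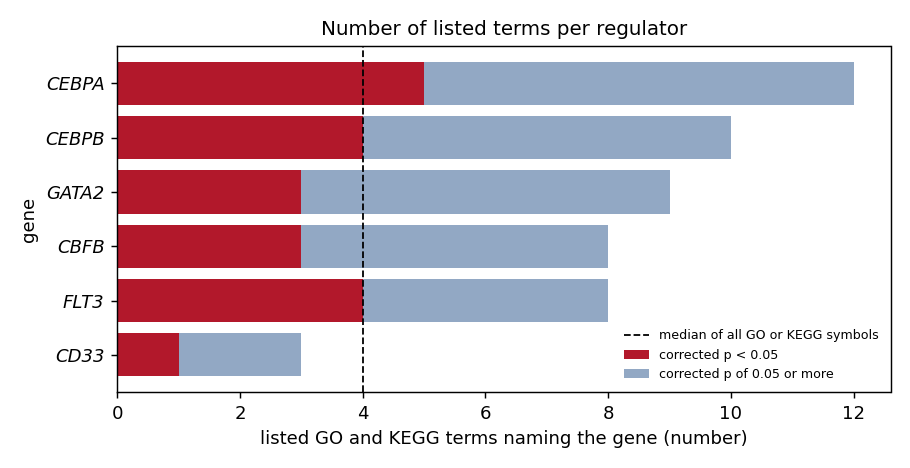
Number of listed GO and KEGG terms (horizontal axis) that name each of the 6 genes (vertical axis), split by the authors' corrected p-value; the dashed line is the median of 4 over all symbols of those tables. CEBPA stands highest with 12 terms and CD33 lowest with 3, the only bar that ends below the line.

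Together the 6 genes made 50 pairings with 30 different terms, 28 of GO and 2 of KEGG. By branch, 13 terms were biological processes, 9 cellular compartments and 6 molecular functions. A corrected p under 0.05 was given in the authors' deposited table to the terms of 20 of the 50 pairings (40%), while 44.1% of all 32670 entries stood in such terms. Counted once per term, 9 of the 30 reached it, against 11.5% of the 349 listed GO and KEGG terms and 12.2% of the 311 GO terms. The second comparison favours large terms, since a term that holds many genes is more likely to hold any given gene. Both counts include negative regulation of neuron apoptotic process, where many entries repeat an identifier, as described with CEBPB.

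**Figure D2:**
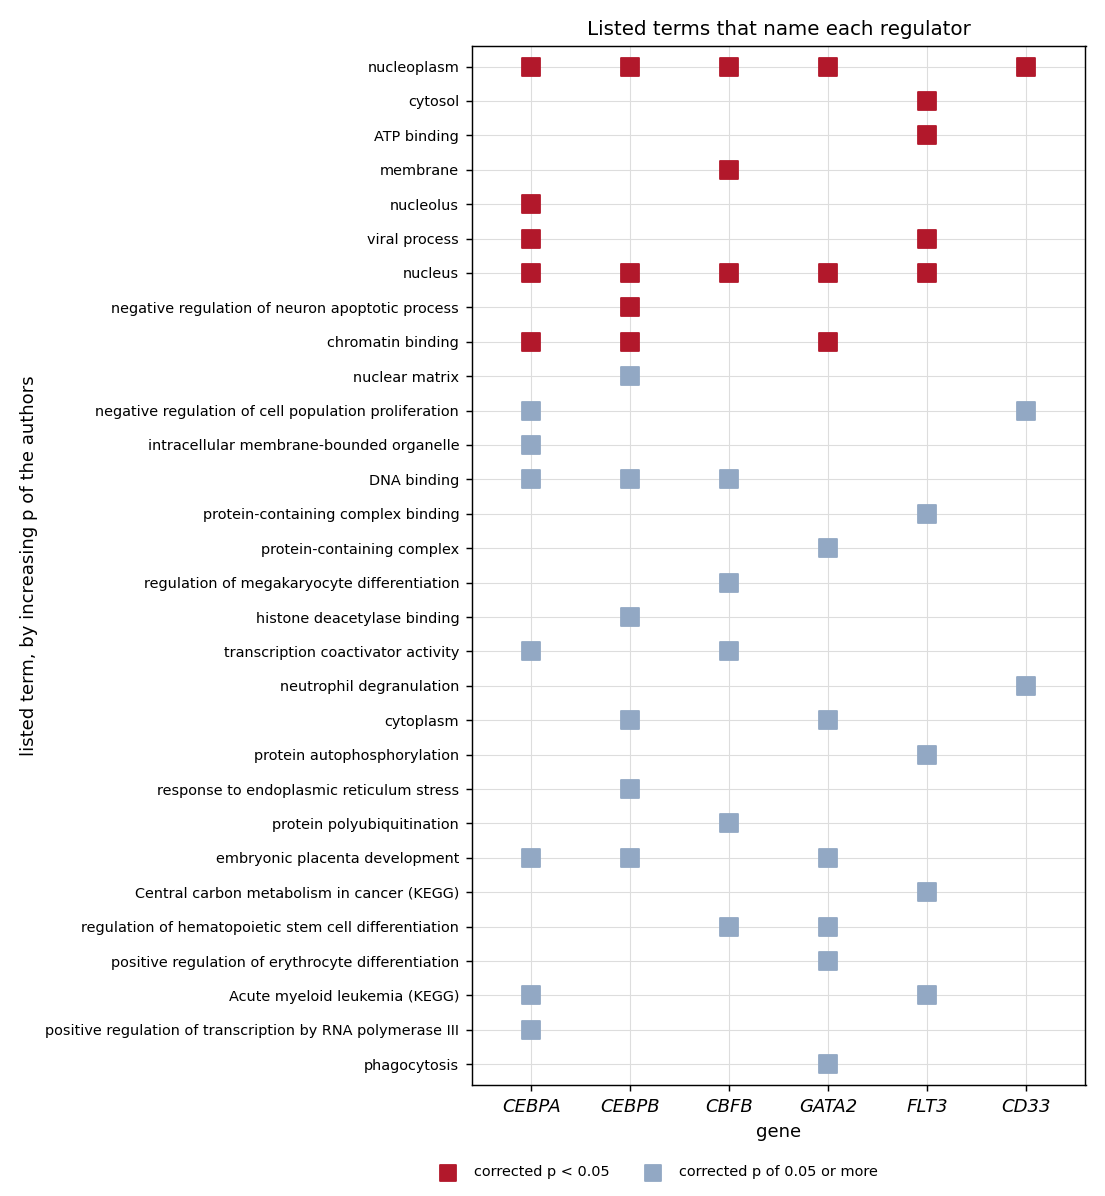
Each filled square marks a listed term (vertical axis, ordered from the smallest p-value of the authors at the top) that names a gene (horizontal axis); red squares have a corrected p under 0.05 in the authors' deposited table and blue squares do not. Red squares gather in the general terms nucleoplasm and nucleus, with 5 genes each, while the terms of blood cell development are all blue.

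CEBPA, the granulocyte factor, was named by 5 terms with a corrected p under 0.05 in the authors' deposited table. They were nucleoplasm (3.05e-20), nucleolus (1.15e-07), viral process (7.46e-07), nucleus (0.00503) and chromatin binding (0.0477). Its remaining GO terms were negative regulation of cell population proliferation (corrected p 0.114), intracellular membrane-bounded organelle (0.158), DNA binding (0.182), transcription coactivator activity (0.375) and embryonic placenta development (0.738) in the authors' deposited table. Its smallest term was positive regulation of transcription by RNA polymerase III, for which the authors' deposited table gives 11 entries on 11 background genes (corrected p 0.864). Those 11 entries stood on 9 distinct identifiers, because the symbols MTOR-AS1 and CTD-2561B21.4 carried the identifiers of MTOR and RPTOR. The 12th term was the KEGG pathway Acute myeloid leukemia, described with FLT3.

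CEBPB, the factor of emergency granulopoiesis, was named by 10 GO terms and no KEGG pathway. Those under 0.05 in the authors' deposited table were nucleoplasm (3.05e-20), nucleus (0.00503), negative regulation of neuron apoptotic process (0.00654) and chromatin binding (0.0477). The apoptotic term had 97 entries on 138 background genes, but only 43 distinct identifiers, 31.2% of the background (95% exact Clopper-Pearson interval 23.6 to 39.6%, which like the intervals below covers counting error only). It is 1 of 13 listed terms that hold the identifier of AMBRA1, an autophagy scaffold, which 51 symbols shared. In the authors' deposited table its corrected p and its rich factor (a ratio of shares) of 2.11 stand beside the 97 entries. Neither was recomputed on the 43 identifiers, whose 31.2% was the lowest share of the 30 terms. The apoptotic term is therefore not read here as enriched. The other terms of CEBPB were nuclear matrix (corrected p 0.0962), DNA binding (0.182), histone deacetylase binding (0.366), cytoplasm (0.451), response to endoplasmic reticulum stress (0.591) and embryonic placenta development (0.738) in the authors' deposited table. CEBPA and CEBPB shared 5 terms, 41.7% of the terms of CEBPA and 50% of those of CEBPB. These were nucleoplasm, nucleus, chromatin binding, DNA binding and embryonic placenta development. The shared terms are of nuclear location and DNA contact in 4 of the 5 cases, as for many transcription factors.

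The remaining genes of the C/EBP family list were not listed. Of the 5 genes of the C/EBP family list besides CEBPA and CEBPB, 0 were listed (0%, interval up to 52.2%, against 26.9% of protein-coding genes). CEBPD, CEBPE (the factor of late granulocyte maturation), CEBPG, CEBPZ and DDIT3 were in none of the tables. CEBPZ carries the family's name without being a basic leucine zipper factor.

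CBFB, the core binding factor subunit, was named by 8 GO terms, of which nucleoplasm (3.05e-20), membrane (6.31e-10) and nucleus (0.00503) had a corrected p under 0.05 in the authors' deposited table. DNA binding (0.182), transcription coactivator activity (0.375) and protein polyubiquitination (0.66) did not reach that limit in the authors' deposited table. The more specific terms were regulation of megakaryocyte differentiation, with 34 entries on 45 background genes (corrected p 0.328), and regulation of hematopoietic stem cell differentiation, with 42 on 69 (0.797), in the authors' deposited table. Of the 34 entries of the megakaryocyte term, 6 were Argonaute and TNRC6 genes of RNA silencing and 5 were KMT2 histone methyltransferases. Of the 42 entries of the stem cell term, 28 were proteasome subunits with PSM symbols, and the rest included CBFB, RUNX1, GATA2, LDB1, KMT2A and the m6A genes METTL3 and YTHDF2. The stem cell term thus consisted mostly of proteasome genes.

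CBFB was also the one gene of the set in the family table, where it was paired with all 4 families (RRM, CSD, PUF, and CCHC ZF with RRM). Pairing with all 4 was found for 62.2% of its 1348 symbols, and 19.8% of the GO and KEGG symbols appeared in it. CEBPA, CEBPB, GATA2, FLT3 and CD33 were absent from it. How the pairing was made is not given in the sources used here, so it does not say that the protein or its transcript has such a domain or site.

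The core binding factor list held 4 listed genes among the 7 besides CBFB (57.1%, interval 18.4 to 90.1%), against 26.9% of protein-coding genes. They were RUNX1, its DNA-binding partner in blood stem cells, RUNX2, best known from bone, and the corepressors CBFA2T2 and CBFA2T3. RUNX1 shared 4 families with CBFB, CBFA2T3 was paired with 4 as well, and RUNX2 with 2. RUNX1 was named by 7 terms, including the megakaryocyte, stem cell and Acute myeloid leukemia terms. RUNX3 was not listed, nor were RUNX1T1 and MYH11, which fuse with RUNX1 and CBFB in leukaemias.

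GATA2 was named by 9 GO terms. Nucleoplasm (3.05e-20), nucleus (0.00503) and chromatin binding (0.0477) had a corrected p under 0.05 in the authors' deposited table. Protein-containing complex (0.305), cytoplasm (0.451), embryonic placenta development (0.738), regulation of hematopoietic stem cell differentiation (0.797), positive regulation of erythrocyte differentiation (0.821) and phagocytosis (0.972) did not, in the authors' deposited table. The erythrocyte term had 23 entries on 32 background genes and 21 distinct identifiers, and the phagocytosis term 36 on 60 with 33 identifiers, among them IRF8, a factor of monocytes and dendritic cells. The placenta term had 17 entries on 20 background genes but 13 distinct identifiers (65%, interval 40.8 to 84.6%). The identifier of PKD1 was carried there by PKD1, NPIPA1 and several clone-named symbols. GATA2 shared 5 terms with CEBPB, 55.6% of its own and 50% of those of CEBPB, the largest overlap of any pair in the set as a Jaccard index (0.357, the shared terms over the terms of either gene).

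Of the 7 GATA factors and partners besides GATA2, 1 was listed, LDB1, a bridging protein of GATA complexes (14.3%, interval 0.361 to 57.9%, against 26.9% of protein-coding genes). GATA1 and GATA3 were unlisted, as were the cofactors ZFPM1, LMO2, TAL1 and LYL1. LDB1 was also the second closest gene to GATA2 by its terms, described below.

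FLT3, the receptor kinase, was named by 6 GO terms and 2 KEGG pathways. Cytosol (5.9e-11), ATP binding (6.03e-11), viral process (7.46e-07) and nucleus (0.00503) had a corrected p under 0.05 in the authors' deposited table. Protein-containing complex binding (0.202) and protein autophosphorylation (0.579) did not, in the authors' deposited table. The KEGG pathway Central carbon metabolism in cancer had 40 entries on 69 background genes, and Acute myeloid leukemia 38 on 66, with corrected p-values of 0.279 and 0.288 in the authors' deposited table. Of the 38 listed KEGG pathways 5.26% had a corrected p under 0.05, and neither pathway of FLT3 did.

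Acute myeloid leukemia was the 1 listed term with myeloid in its name, and it named CEBPA and FLT3 but none of the other 4 genes. Its 38 entries stood on 35 distinct identifiers, 53% of the background (interval 40.3 to 65.4%). MTOR-AS1, AC007192.4 and FCGR1B carried the identifiers of MTOR, PIK3R2 and FCGR1A. Of its entries, 13 further genes were in the lists used here. They included the receptor CSF1R, the nuclear body protein PML and the transcription factors RUNX1, MYC, RARA, STAT5A and STAT5B. The granule enzyme MPO and the signalling proteins AKT1, GRB2, HRAS and PIK3CD were among them too. Of the 38 entries, 7 were in the family table, RUNX1 and PIM1 among them, and neither CEBPA nor FLT3 was.

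Among the 8 haematopoietic growth factor receptors besides FLT3, 3 were listed (37.5%, interval 8.52 to 75.5%, against 26.9%). CSF1R, the macrophage colony-stimulating factor receptor, had 6 terms, beside 8 for FLT3. CSF2RB and IL3RA, chains of the GM-CSF and IL-3 receptors, were each named by the KEGG pathway Apoptosis and no other term. KIT, CSF2RA, CSF3R and EPOR were among those not listed. With terms of a corrected p under 0.05 alone, which listed 22.9% of protein-coding genes, CSF1R was the only listed receptor of the list besides FLT3.

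Of 22 genes of FLT3 signalling, 9 were listed (40.9%, interval 20.7 to 63.6%, against 26.9%). Among them were AKT1, CBL, GRB2, HRAS, PIK3CD, SHC1 and STAT5A. AKT1, a survival kinase, had 40 terms, the maximum of any symbol, and SHC1, an adaptor, had 4. Of the 22 genes, 8 stood in a KEGG pathway (as did 5.69% of protein-coding genes) and PIK3CD alone was in the family table. The ligand gene FLT3LG was not listed, and neither was NRAS, which was singled out after the result was seen.

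CD33, the Siglec, had the fewest terms. It was named by nucleoplasm (corrected p 3.05e-20), negative regulation of cell population proliferation (0.114) and neutrophil degranulation (0.412) in the authors' deposited table. Neutrophil degranulation had 237 entries on 482 background genes in the authors' deposited table, and 222 distinct identifiers (46.1%, interval 41.5 to 50.6%). The proliferation term was another with the AMBRA1 identifier, and its 209 entries stood on 151 identifiers, 38.3% of 394 background genes (interval 33.5 to 43.3%). Without the terms that hold that identifier CD33 kept 2 terms. No listed term had a name with sialic in it, and of 3 terms with plasma membrane in the name none named CD33. Only terms with a p-value up to 0.0497 were listed, so annotations of CD33 in other terms could not appear. The absence of surface receptor terms therefore says nothing about where CD33 lies.

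Of the 14 Siglec receptors and phosphatases besides CD33, 2 were listed (14.3%, interval 1.78 to 42.8%, against 26.9%), namely SIGLEC9 and PTPN6. SIGLEC9, a neutrophil and monocyte receptor, was named by neutrophil degranulation alone. PTPN6 (SHP-1), the only phosphatase placed in this list, is one that binds the inhibitory motifs of such receptors. It was named by 10 terms, among them all 3 terms of CD33.

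The entries of a term and its distinct identifiers differed little for most of these genes. The number of entries per identifier in the 30 terms ran from 1 to 2.26 with a median of 1.09, against a median of 1.08 over all 349 listed terms. By distinct identifier, the 30 terms covered 31.2 to 81.8% of their background genes, with a median of 51.5%, against 61.5% over all listed terms. The 30 terms include very large ones such as nucleus, with 42.1% of 5208 background genes. The part that term size played in the lower median was not tested. The 5 terms with the AMBRA1 identifier were cytosol, cytoplasm, intracellular membrane-bounded organelle and the apoptotic and proliferation terms, and they held 7 of the 50 pairings. All 8 terms of CBFB were free of that identifier. CEBPA, CEBPB, GATA2, FLT3 and CD33 kept 10, 8, 8, 7 and 2 terms without it.

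**Figure D3:**
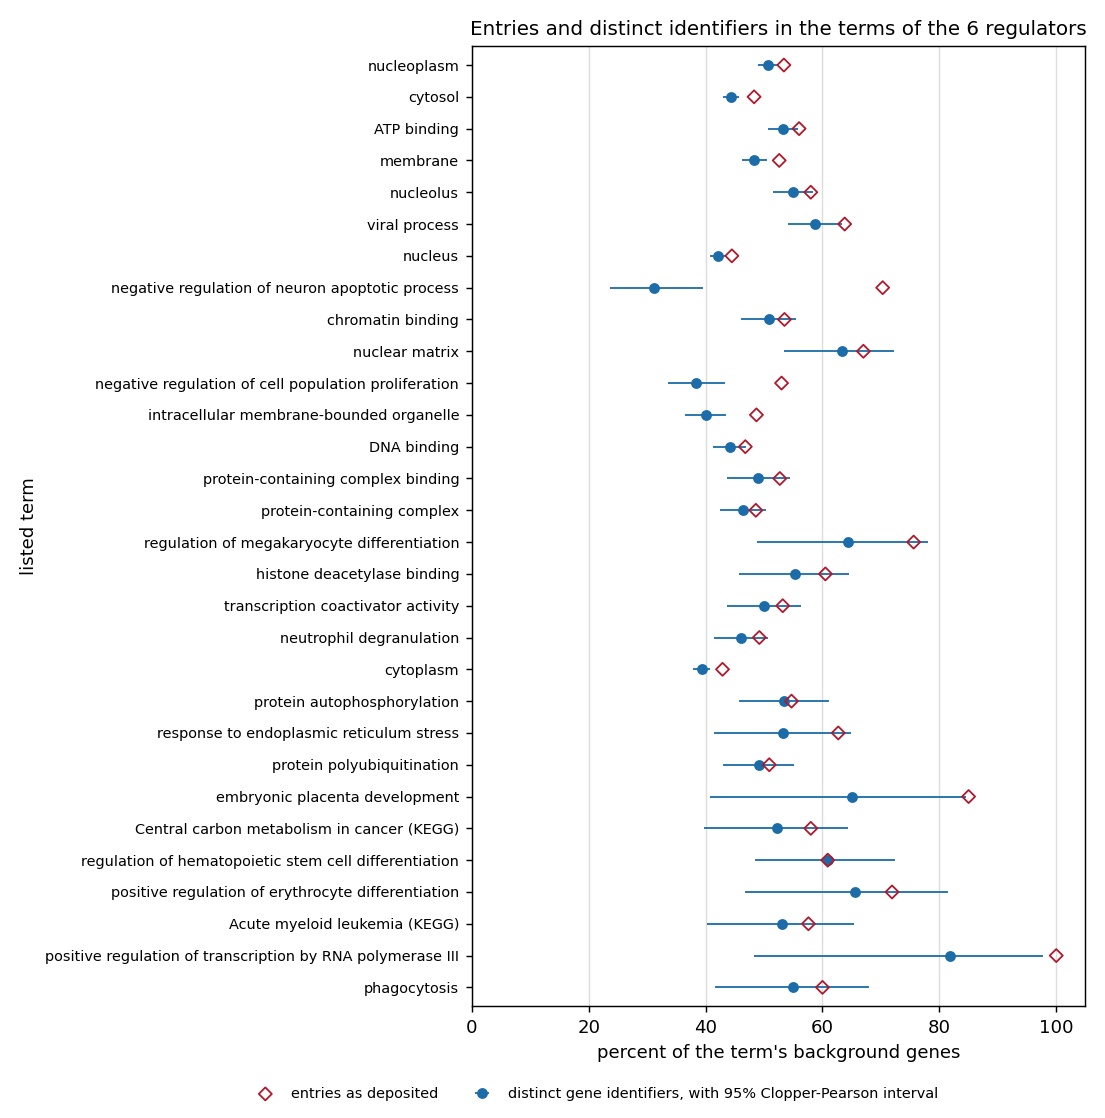
Entries as deposited (open diamonds) and distinct gene identifiers (filled circles with 95% Clopper-Pearson intervals), each as a percent of the background genes of the term (horizontal axis), for the 30 terms that name the 6 genes (vertical axis). The widest gap is in negative regulation of neuron apoptotic process, at 70.3% by entries and 31.2% by identifiers.

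Within the set, 19 of the 30 terms named 1 gene and 11 named 2 or more. Nucleoplasm named CEBPA, CEBPB, CBFB, GATA2 and CD33, and nucleus named CEBPA, CEBPB, CBFB, GATA2 and FLT3. Chromatin binding and embryonic placenta development each named CEBPA, CEBPB and GATA2, and DNA binding named CEBPA, CEBPB and CBFB. Regulation of hematopoietic stem cell differentiation named CBFB and GATA2. FLT3 and CD33, the membrane proteins of the set, shared no term. The transcription regulators shared 3 to 5 terms in every pair.

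The nearest symbols were sought by the Jaccard index over listed terms, with at least 3 shared terms, as a description of annotation. For CEBPA they were SMARCA2, a chromatin remodelling ATPase (7 shared terms, index 0.389), CENPA and CIC (5 shared, 0.385 each). For CEBPB they were DNMT3A, a DNA methyltransferase (6 shared, 0.429), ZKSCAN3 (0.417) and CTC-250I14.6 (0.4). ARID5B, MED6 and SOX12 each shared 4 terms with CBFB (0.5). ARNT (5 shared, 0.417), LDB1 (4 shared, 0.4) and STAT5B (5 shared, 0.385) were nearest to GATA2.

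FGFR1, another receptor tyrosine kinase, was nearest to FLT3 with 5 shared terms (0.5), ahead of RP11-231C18.3 (0.4) and EPHB4 (0.375). The terms that FLT3 shared with FGFR1 were cytosol, ATP binding, nucleus, protein autophosphorylation and Central carbon metabolism in cancer. PTPN6 was nearest to CD33 (3 shared, 0.3), and HSPA1A and HSPA1B followed at 0.103. CD33 has 3 terms in all, so that a neighbour had to hold every one of them, while 437 to 917 symbols shared at least 3 terms with each of the other genes.

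Other myeloid transcription factors were listed in 9 of 22 cases (40.9%, interval 20.7 to 63.6%, against 26.9%). The first 8 in alphabetical order were ETV6, GFI1, IRF8, KLF4, MECOM, MEIS1, MYC and PML. PML, counted in this list although it is a nuclear body protein, had 22 terms and MYC 17. PML fuses with RARA in acute promyelocytic leukaemia, and whether the cells used here carry that fusion was not analysed. MECOM had 7, IRF8 6, GFI1 and KLF4 5 each, ETV6 4 and MEIS1 2. MEIS1 was the 1 gene of this list in the family table. SPI1, the master factor of myeloid cells that acts with CEBPA, was not listed, and it was singled out after the result was seen.

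Genes recurrently mutated in acute myeloid leukaemia were listed in 18 of 24 cases (75%, interval 53.3 to 90.2%, against 26.9%). The first 8 in alphabetical order were ASXL1, BCOR, BCORL1, CUX1, DDX41, DNMT3A, IDH1 and IDH2. DDX41, an RNA helicase, had 11 terms, 8 of them with a corrected p under 0.05 in the authors' deposited table. IDH1, a metabolic enzyme, had 12 and DNMT3A 10, of which 2 and 3 reached that limit. EZH2, RAD21, TET2, U2AF1 and WT1 were among those not listed. Several listed genes of this list are splicing, cohesin or chromatin genes, whose terms were themselves among those listed; the part this played was not tested.

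In all, the 8 lists of myeloid and leukaemia genes held 115 genes, of which 52 were listed (45.2%). Without the 6 genes described here it was 46 of 109 (42.2%), beside 26.9% of protein-coding genes. Outside the family table a gene is listed only if a listed term names it. The share of each list thus depends on how thoroughly its genes are annotated, on their expression in these cells and on binding. These parts cannot be told apart, and no preference of ALKBH5 for myeloid genes is read from the shares. The lists were written with earlier results of these tables known.

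**Figure D4:**
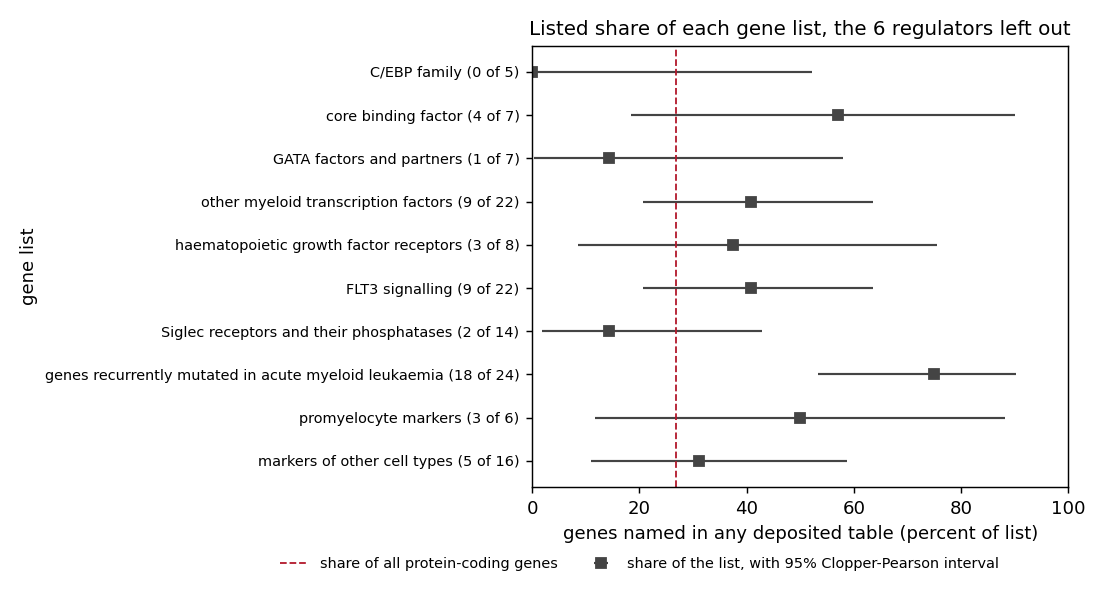
Share of each gene list, with the 6 genes described here left out, named in any deposited table (squares, with 95% Clopper-Pearson intervals; horizontal axis in percent), with the share of all protein-coding genes (26.9%) as a dashed line. The C/EBP list lies at 0% and the GATA and Siglec lists at 14.3%, with intervals that span the line, and the genes recurrently mutated in acute myeloid leukaemia lie highest at 75%.

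The label of the cells could be checked by presence alone. Of 6 promyelocyte markers 3 were listed (50%, against 26.9% of protein-coding genes), MPO, PRTN3 and LYZ, while ELANE, AZU1 and CTSG were not. Of 16 markers of other cell types 5 were listed (31.2%, near that share), EPCAM, KRT8, KRT18, KRT19 and PECAM1. T cell, B cell and globin markers such as CD3D, CD3E, CD8A, MS4A1, CD79A, HBA1 and HBB were not. PECAM1 was named by phagocytosis and neutrophil degranulation among its terms, so it does not set other cells apart from myeloid ones. With terms of a corrected p under 0.05 alone, 2 of the 6 and 3 of the 16 were listed, against 22.9% of protein-coding genes. The shares of 50% and 31.2% have wide, overlapping intervals of 11.8 to 88.2% and 11 to 58.7%, and tables of this kind cannot place the cells.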

How the data were processed

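RNA held by an ALKBH5 antibody and input RNA of HL60 cells were sequenced, 1 library each. Per the submitters' processing notes, reads were placed on hg38; no aligner or peak caller, and no use of the IgG control, is given in the sources used here. Per the file headers, the authors deposited, for each GO term and KEGG pathway, a count of input entries and of background genes, a rich factor (a ratio of shares), a p-value and a corrected p-value. They also deposited pairs of gene symbol and RNA-binding family. Library depth is unknown.

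Entries were split into identifier and symbol with Python 3.11.15 and pandas 2.3.3; the parsing was tested on simulated tables. Symbols were matched to RefSeq GRCh38.p14 by symbol, then by an unambiguous older symbol (373 of 5851 without a match). Intervals are 95% exact Clopper-Pearson (SciPy 1.17.1). No test was run: p-values are the authors'.

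The genes and the 10 lists (8 of them myeloid or leukaemia lists) were chosen with earlier results of these data known. All genes are named of lists of up to 10, otherwise the first 8 listed alphabetically, apart from some genes not reported here; neighbours are the 3 symbols of highest Jaccard index. Alternatives were other choices of table, term and matching.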

Additional observations from a re-analysis of the deposited data

How the results depend on the processing

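All 6 genes were also listed by the GO table alone (25.7% of protein-coding genes) and by identifier. They were listed too by terms with a corrected p under 0.05 alone (22.9%) and without the AMBRA1 terms (25.6%). Most genes listed in any table pass these settings, and the 6 were chosen as listed, so the counts are a description only. The KEGG table alone listed 2 of them, and 1 was in the family table. The 50 pairings became 20 with terms under 0.05, 43 without the AMBRA1 terms, and 50 by identifier. The 52 listed genes of the 8 lists became 25 in the KEGG table alone and 11 in the family table alone, both smaller tables by construction; the other alternatives gave 49 to 52. Matching of the lists by identifier was chosen after seeing the data. No paired analysis was possible because each fraction had 1 library and no value belongs to a library. Depth limits cannot be given without counts per gene.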
